A study of Mus musculus with 47 samples.

Results

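The transcripts described here encode 7 surface receptors of the scavenger and lectin type: Olr1, Clec7a, Msr1, Marco, Cd36, Scarb1 and Stab1. They are 7 of the 56748 genes in the count table. Olr1 was chosen by its difference between m.12436 60% and control tumors in these same libraries, and the other 6 were set beside it as named receptors of like kind with results of these data already known. Every member's value in the comparison of 60% with control tumors is therefore given as a description with no test, and so are the values of Olr1 in each tumor comparison. The pathway and marker lists set beside the members were also chosen with these results known. Tests of the other 6 members and of these lists are therefore not independent evidence.

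All samples came from B78-D14, an unpigmented mouse melanoma line derived from B16 that lacks Cdkn2a. A mitochondrial base editor had been used to write a G>A stop change into Mt-Nd5, the gene of a complex I subunit, at position 12436 or 11944 of the mitochondrial DNA, and the label of a group gives the share of mutant copies in the engrafted or cultured cells. Bulk RNA-seq counts were taken from 4 control (WT) tumors, 7 m.12436 40% tumors and 7 m.12436 60% tumors, all untreated pieces of whole tumors grown under the skin of immunocompetent male C57BL/6 mice, and from 4 control and 4 m.11944 60% cultures, also untreated. Each edited line was a sorted population of 1 parental line, so a group compares tumors or cultures of that population, and the tumor pieces held the blood vessel, connective tissue and immune cells of the host as well. Tumor libraries held between 16475735 and 31218475 counts on genes and culture libraries between 25249060 and 36173502. Of 7 melanocyte genes, 4 averaged 3 counts per library or fewer in the control cultures, and nearly all of the summed level came from Mitf, at 15.0 CPM ± 7.53 (SD, n = 4). Levels are given as CPM, the counts scaled to a common library total after TMM normalization.

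Scavenger receptors bind and take up modified lipoproteins, dying cells and microbial surfaces, and in tumors they are known mainly from macrophages and endothelial cells. Olr1 (LOX-1) is a lectin-like receptor of oxidized low-density lipoprotein, and Clec7a (dectin-1) is the lectin that binds beta-glucan and signals through Syk and Card9. Msr1 (SR-A) and Marco are trimeric class A receptors, Cd36 and Scarb1 (SR-BI) are class B receptors of fatty acids and of high-density lipoprotein, and Stab1 (stabilin-1) is a large receptor of alternatively activated macrophages and sinusoidal endothelium. The proteins translated from the canonical transcripts fell into 3 pairs and a single long chain of 2571 residues, Stab1. Olr1 and Clec7a shared 51 of 179 aligned residues, Msr1 and Marco shared 133 of 441, and Cd36 and Scarb1 shared 145 of 458. Between other pairs, the identical residues came to at most 6.09% of the shorter protein.

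Olr1 and Clec7a are neighbors on the minus strand of mouse chromosome 6 (GRCm39), at 129462207 to 129484128 and 129438554 to 129449742, with 12464 bases and no gene lying wholly between them. An annotated noncoding gene, Gm45969, lies on the opposite strand and overlaps Olr1. Whether reads were counted by strand is not given in the sources used here, so reads of Olr1 and of this antisense gene cannot be told apart. Of the other members, Cd36 lies on chromosome 5 at 17986432 to 18094067, Scarb1 on chromosome 5 at 125353547 to 125418176, Msr1 on chromosome 8 at 40034726 to 40095714, Marco on chromosome 1 at 120402267 to 120432753 and Stab1 on chromosome 14 at 30860970 to 30890598.

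The 250 bases before the RefSeq start are shown for Olr1 and Clec7a, the neighbors with the largest higher values in 60% tumors, and for Marco, the member with the largest lower value. They lie on the minus strand of GRCm38.p6 at chr6:129507166-129507415, chr6:129472780-129473029 and chr1:120505025-120505274. Capitals mark the letters GAGGAA or, read from the other strand, TTCCTC, the core bound by PU.1, an ETS factor of myeloid cells.
Olr1: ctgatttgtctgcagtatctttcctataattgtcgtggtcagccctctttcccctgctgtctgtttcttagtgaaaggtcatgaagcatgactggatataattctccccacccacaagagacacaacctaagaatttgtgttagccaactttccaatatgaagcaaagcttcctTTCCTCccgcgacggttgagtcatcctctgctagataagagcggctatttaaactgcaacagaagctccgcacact
Clec7a: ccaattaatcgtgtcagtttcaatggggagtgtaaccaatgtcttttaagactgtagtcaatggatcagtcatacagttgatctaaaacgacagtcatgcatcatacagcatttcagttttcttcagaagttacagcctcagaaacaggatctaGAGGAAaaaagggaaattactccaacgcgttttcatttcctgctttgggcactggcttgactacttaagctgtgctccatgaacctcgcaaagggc
Marco: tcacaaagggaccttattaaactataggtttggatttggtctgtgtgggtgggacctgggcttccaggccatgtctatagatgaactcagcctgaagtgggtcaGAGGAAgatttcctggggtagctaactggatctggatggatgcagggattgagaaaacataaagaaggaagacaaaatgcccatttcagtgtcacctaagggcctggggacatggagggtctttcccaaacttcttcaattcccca

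Windows were available for 5 members, and 4 of them, those of Olr1, Clec7a, Marco and Stab1, held the GAGGAA core on either strand once, against 23.3% of the 32851 mouse promoter windows of the same length in the RefSeq table. The match began 76 bases before the start in Olr1, 96 in Clec7a, 146 in Marco and 30 in Stab1. RefSeq gave 2 windows for Clec7a, and the values here are those of the 1 shown. The window of Cd36 held none. The AP-1 letters TGANTCA were found only in the Olr1 window among these 5, beginning 60 bases before the start, and 6.75% of all windows held them. Neither the C/EBP letters TTGCNNAA (9.56% of all windows) nor the E-box CACGTG bound by MITF (6.02%) was found in any of the 5. These matches were searched on both strands, do not overlap each other and describe letters, not binding.

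The order of the members' levels was judged per kilobase of canonical transcript in control tumors. Msr1 stood at 48.4 CPM per kb ± 12.0 (SD, n = 4), Stab1 at 37.2 ± 7.89, Scarb1 at 25.1 ± 1.77 and Clec7a at 11.8 ± 3.60. Cd36 followed at 3.98 ± 2.11, Marco at 0.534 ± 0.454 and Olr1 at 0.427 ± 0.271. Msr1 and Stab1 overlapped within their spread, and so did Marco and Olr1. Divided by the length of all annotated exons instead, Stab1 came before Msr1, at 28.9 against 10.9 CPM per kb, since the canonical Msr1 transcript of 1424 bases is short beside its longer variants. Olr1 was the least abundant member by this scale in control tumors, yet by 60% tumors it stood at 1.49 CPM per kb ± 0.433 (n = 7), above Marco at 0.150 ± 0.151.

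Olr1 was higher in 60% tumors than in control tumors and took values in between at 40%. In the 4 control tumors it was at 1.53, 0.932, 0.757 and 2.89 CPM, from 34, 28, 23 and 62 counts. In the 7 tumors at 40% it ran from 1.05 CPM over a median of 2.25 to 3.88 CPM. In the 7 tumors at 60% it ran from 2.89 over a median of 5.28 to 7.50 CPM, from 64 to 192 counts. The lowest 60% tumor and the highest control tumor lay within rounding of each other, at 2.894 and 2.891 CPM, so the groups barely failed to overlap, while 6 of 7 tumors at 60% exceeded every 40% tumor. The fitted log2 difference was 1.83 ± 0.38 (SE) for 60% against control, 0.56 ± 0.37 for 40% against control and 1.27 ± 0.30 for 60% against 40%. Across the 3 groups the Olr1 counts stayed low, and a tumor rested on 23 to 192 reads. In bulk RNA, fewer cells that carry a transcript and less of it per cell cannot be told apart, and this holds for every tumor value here.

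Clec7a, the lectin next to Olr1, took similar values in control and 40% tumors and was higher at 60%. Control tumors were at 7.59, 11.6, 5.53 and 8.72 CPM. Tumors at 40% ran from 3.81 over a median of 8.34 to 13.3 CPM, and tumors at 60% from 11.7 over 14.3 to 31.7 CPM. The 60% tumors fell into 3 at 24.0 to 31.7 CPM (replicates 1, 4 and 7) and 4 at 11.7 to 14.3 CPM, and the lowest of these lay just above the highest control tumor, at 11.69 against 11.62 CPM. The log2 difference for 60% against control was 1.19 ± 0.35 (SE), given as a description.

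**Figure D1:**
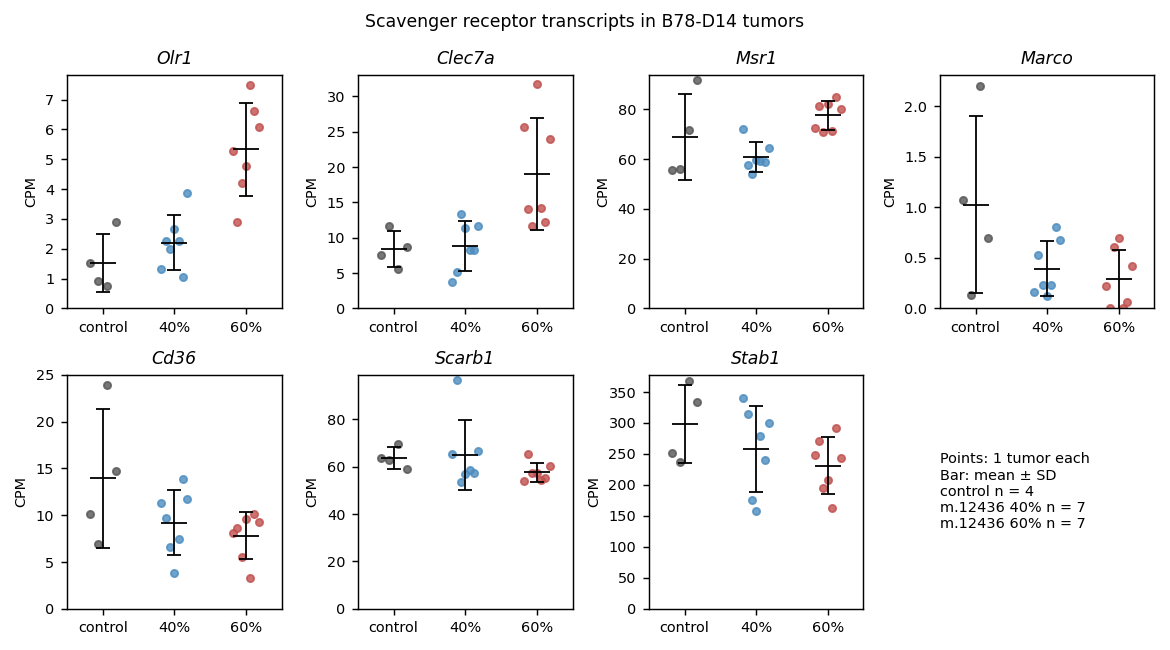
Level of the 7 receptor transcripts in CPM (vertical axis, from 0) in control, m.12436 40% and m.12436 60% tumors, with 1 point per tumor and the mean ± SD as a bar. Olr1 and Clec7a sat highest at 60%, the Marco points at 60% included tumors at 0 counts, and 40% tumor 2 stood apart for Scarb1 at 96.6 CPM.

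Msr1, the most abundant class A receptor, was spread widely in control tumors, at 55.6, 56.1, 71.8 and 92.0 CPM. It ran from 54.1 over 59.2 to 72.2 CPM at 40% and from 70.7 over 80.1 to 85.0 CPM at 60%. Control tumors therefore covered nearly the whole range of both edited groups, and 5 of 7 tumors at 60% lay above every 40% tumor. The log2 difference for 60% against control was 0.17 ± 0.11 (SE), and it ran from 0.08 without control tumor 1 to 0.34 without control tumor 4.

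Marco, its class A relative, was near the limit of detection. Control tumors gave 24, 4, 67 and 15 counts, or 1.08, 0.133, 2.20 and 0.700 CPM. At 40% the counts ran from 2 to 23 (0.118 to 0.807 CPM) and at 60% from 0 to 18 (0 to 0.698 CPM), with no read in tumors 2 and 5. The log2 difference for 60% against control was -1.78 ± 0.71 (SE), and -1.03 without control tumor 3, which alone held 67 of the 110 counts of its group.

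Among the class B receptors, Cd36 stood at 10.1, 6.96, 24.0 and 14.7 CPM in control tumors. It ran from 3.79 over 9.74 to 13.9 CPM at 40% and from 3.25 over 8.64 to 10.2 CPM at 60%, so all groups overlapped and only control tumors 3 and 4 lay above every edited tumor. The log2 difference for 60% against control was -0.83 ± 0.35 (SE), and -0.42 without control tumor 3. Scarb1 had overlapping groups, at 63.8 CPM ± 4.50 (SD, n = 4) in control tumors, 65.0 ± 14.7 (n = 7) at 40% and 57.8 ± 4.02 (n = 7) at 60%. At 60%, 5 of 7 tumors lay below every control tumor, and at 40%, 4 of 7 lay below and 1 above. The only distant Scarb1 value was 96.6 CPM in 40% tumor 2, whereas the other 40% tumors lay between 53.5 and 66.8 CPM.

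Stab1 had the highest CPM of all members, at 251, 238, 367 and 334 CPM in control tumors. It ran from 158 over 280 to 340 CPM at 40% and from 162 over 244 to 292 CPM at 60%, with overlapping groups. The log2 difference for 60% against control was -0.36 ± 0.20 (SE), and that of Scarb1 was -0.14 ± 0.12.

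In the comparison of 60% with control tumors, 1 of the 7 members, Olr1, was past an adjusted p of 0.1, the threshold of the study, beside 2.31% of the 16213 genes tested. This comparison chose Olr1, so nothing is read from the count. Without control tumor 3, the adjusted p of no member was past the threshold, and the calls over all genes went from 374 to 66. The groups did not overlap for 2 members, Olr1 and Clec7a, beside 4.07% of all genes tested. Over the 7 members 3 differences were above 0 and 4 below, with a median log2 difference of -0.14 beside -0.00251 over all genes tested. All 7 members passed the filter on low counts in tumors.

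The comparison of 40% with control tumors asked whether the lower mutant load moved the same receptors. It shares its control tumors with the comparison that chose Olr1. None of the members passed the threshold, and no gene of the 16213 did (0%, edgeR quasi-likelihood test with Benjamini-Hochberg adjustment), although 825 genes had an unadjusted p under 0.05 and DESeq2 called 5. Groups were apart for 0.45% of all genes and for no member. Clec7a differed by 0.08 ± 0.34 (SE) on the log2 scale (adjusted p = 0.991, 95% interval -0.59 to 0.76), Msr1 by -0.18 ± 0.11 (adjusted p = 0.924) and Scarb1 by 0.03 ± 0.12 (adjusted p = 0.991). Cd36, Marco and Stab1 had differences of -0.59 ± 0.35, -1.33 ± 0.69 and -0.21 ± 0.20, with adjusted p of 0.924, 0.924 and 0.960. Without control tumor 3 they were -0.18, -0.58 and -0.08, while that of Msr1 was -0.0069 without control tumor 4. The interval of Clec7a covers differences in either direction, so with 4 control tumors a rise or a fall within it cannot be told from no difference.

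The comparison of 60% with 40% tumors set the mutant loads against each other within the same edited allele. It shares its 60% tumors with the comparison that chose Olr1, so its tests of the other members are not independent of that choice. Clec7a rose at 60%, by 1.11 ± 0.29 (SE) on the log2 scale (adjusted p = 0.0892), with 5 of 7 tumors at 60% above every 40% tumor. Msr1 rose by 0.35 ± 0.09 (adjusted p = 0.0908), a change of 1.27-fold. With Olr1, whose value is a description, 3 of the 7 members were past the threshold beside 1.81% of all genes, and groups were apart for no member beside 0.623% of all genes. The other 4 members had log2 differences of -0.24 ± 0.30 (Cd36, adjusted p = 0.777), -0.45 ± 0.69 (Marco, 0.824), -0.17 ± 0.10 (Scarb1, 0.467) and -0.16 ± 0.17 (Stab1, 0.738). The Clec7a and Msr1 calls lay close to the threshold. Clec7a lost its call with only the compared groups fitted (adjusted p = 0.113), without 60% tumor 1, 2, 4 or 7, 40% tumor 1, 2, 5 or 6 or control tumor 1 or 4, at adjusted p between 0.105 and 0.177. Msr1 lost its call without 60% tumor 1, 2, 4, 6 or 7 or without 40% tumor 2, 3, 5 or 6, at adjusted p between 0.119 and 0.169. With the tumor numbers as a block, the adjusted p was 0.184 for Clec7a and 0.145 for Msr1.

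**Figure D2:**
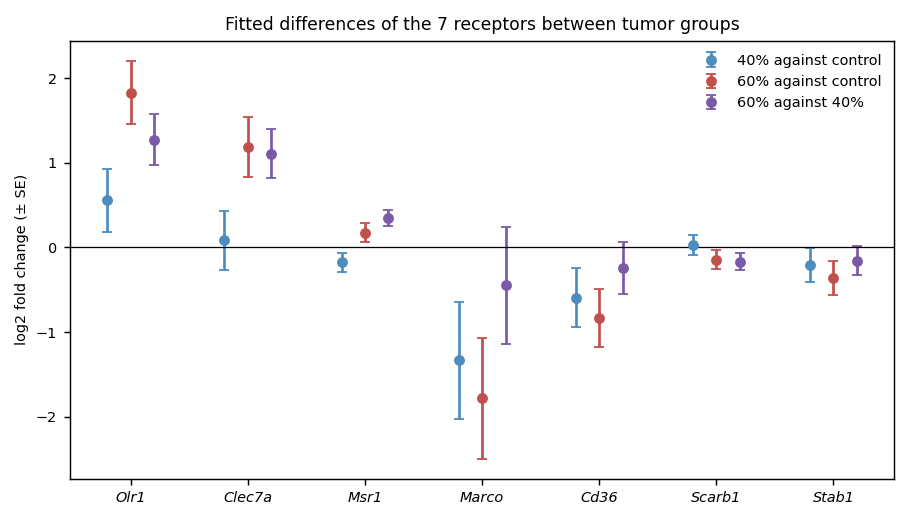
Fitted log2 fold change (vertical axis, ± SE) of each receptor in the 3 tumor comparisons, where values above 0 are higher in the group named first. Olr1 and Clec7a lie above 0 in both comparisons that involve 60% tumors, Msr1 lies at 0.35 in 60% against 40%, and the Marco bars are the widest.

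Some macrophage genes were also higher in 60% tumors. The summed level of 14 macrophage and monocyte genes ran from 2294 to 2531 CPM in control tumors, from 1838 to 2505 CPM at 40% and from 2147 to 3341 CPM at 60%, and all 14 genes averaged more than 3 counts per library in each group. Itgam was among the genes of this list that passed the test at 60% against control, and Itgam and Lyz2 were among those at 60% against 40%, and none of the list passed as lower. Itgam, the integrin of myeloid cells, went from 61.9 CPM ± 5.45 (SD, n = 7) at 40% to 82.6 ± 6.99 (n = 7) at 60%, a log2 difference of 0.42 ± 0.07 (adjusted p = 0.00611).

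With the macrophage genes' mean log2 level as a term in the fit, the values of the 2 lectins moved by different amounts. The log2 difference of Clec7a for 60% against 40% went from 1.11 to 0.51 ± 0.23 (SE, adjusted p = 0.419), whereas that of Olr1 stayed at 1.25 ± 0.33 and that of Msr1 at 0.38 ± 0.12 (adjusted p = 0.231). For 60% against control, Clec7a went from 1.19 to 0.45 ± 0.28 and Olr1 from 1.83 to 1.80 ± 0.44. No member was past the threshold in that fit, which called 67 genes for 60% against control and 87 for 60% against 40%. Across the 18 tumors, with group means removed, Clec7a followed the macrophage genes (Pearson r = 0.738, permutation p = 0.0011, adjusted over 91 relations of member and gene list 0.0143; Spearman rho = 0.732, permutation p = 0.00195, adjusted 0.0296), and r was 0.794 without the 2 farthest tumors. The same r was 0.073 for Olr1 (permutation p = 0.767; Spearman rho = 0.098, permutation p = 0.707; r = 0.196 without the 2 farthest) and between -0.086 and 0.097 for the other 5 members, with adjusted permutation p of 0.92 to 0.929.

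The relation of Clec7a was not particular to the macrophage genes. Its r was 0.797 with 7 T and NK cell genes (permutation p = 0.00011, adjusted 0.00971; rho = 0.827, permutation p = 0.00017, adjusted 0.0155; r = 0.866 without the 2 farthest tumors). It was 0.763 with 4 leukocyte genes (permutation p = 0.00045, adjusted 0.0102; rho = 0.73, permutation p = 0.0017, adjusted 0.0296; r = 0.81 without the 2 farthest). With 8 endothelial genes that passed the filter it was negative, at -0.761 (permutation p = 0.00078, adjusted 0.0142; rho = -0.802, permutation p = 0.00037, adjusted 0.0168; r = -0.776 without the 2 farthest). It was 0.817 with 12 dectin-1 signaling genes (permutation p = 0.00032, adjusted 0.00971; rho = 0.759, permutation p = 0.00109, adjusted 0.0248; r = 0.787 without the 2 farthest) and 0.814 with 13 C-type lectins (permutation p = 0.00028, adjusted 0.00971; rho = 0.798, permutation p = 0.00067, adjusted 0.0203; r = 0.888 without the 2 farthest). With 7 dendritic cell genes the r of Clec7a was 0.653 (permutation p = 0.00524, adjusted 0.053). The rho of that relation was 0.678 (permutation p = 0.00478, adjusted 0.0621). The gene lists share the same 18 tumors, and none of these lists was tested against another. Olr1 went against 16 other scavenger receptors, at r = -0.725 (permutation p = 0.00414, adjusted 0.0471; rho = -0.692, permutation p = 0.00615, adjusted 0.07; r = -0.598 without the 2 farthest). With the 6 neutrophil genes that passed the filter its r was -0.612 (permutation p = 0.0112, adjusted 0.0927; rho = -0.595, permutation p = 0.0158, adjusted 0.12; r = -0.563 without the 2 farthest), and with the 3 adipocyte genes that did -0.495 (permutation p = 0.0459, adjusted 0.278; rho = -0.486, permutation p = 0.0568, adjusted 0.287; r = -0.437 without the 2 farthest). Scarb1 went with the 16 other scavenger receptors, at r = 0.58 (permutation p = 0.00639, adjusted 0.0581). Its rho with them was 0.614 (permutation p = 0.012, adjusted 0.0993). The relation of Scarb1 with the endothelial genes is given below.

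**Figure D3:**
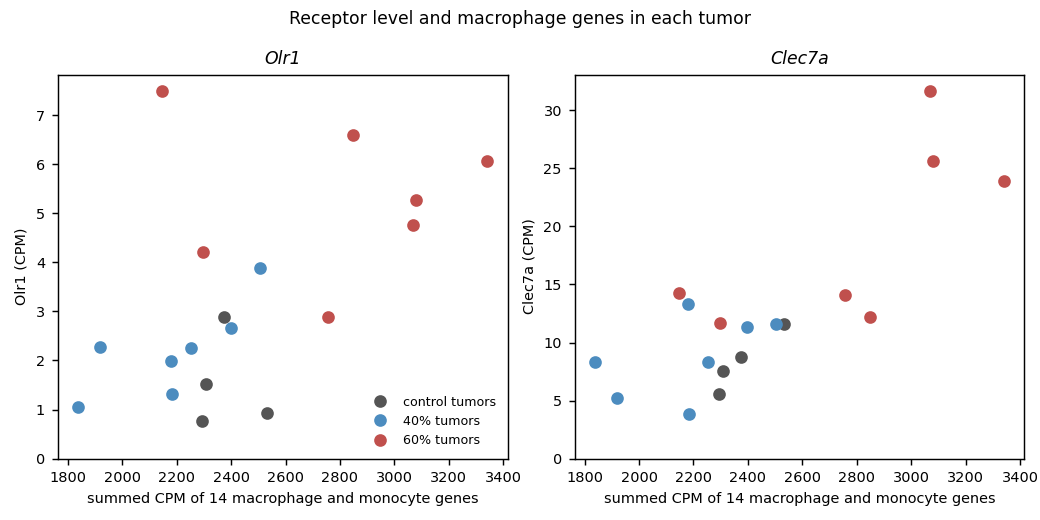
Level of Olr1 (left) and Clec7a (right) in CPM against the summed CPM of 14 macrophage and monocyte genes, with 1 point per tumor colored by group. The 60% tumor with the most Olr1, at 7.50 CPM, had the lowest macrophage sum of its group, 2147 CPM, while the 3 tumors with the most Clec7a were those with the highest sums, 3070 to 3341 CPM.

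Pairs of members followed each other across tumors only in part. Over 21 pairs, with group means removed, Cd36 and Stab1 went together most closely (Pearson r = 0.813, permutation p = 0.00025, adjusted 0.00525; Spearman rho = 0.75, permutation p = 0.00152, adjusted 0.0273; r = 0.762 without the 2 farthest tumors). Msr1 and Stab1 followed at r = 0.593 (permutation p = 0.0065, adjusted 0.0682; rho = 0.695, permutation p = 0.0026, adjusted 0.0273; r = 0.642 without the 2 farthest). Cd36 and Marco stood at r = 0.586 (permutation p = 0.0165, adjusted 0.116; rho = 0.496, permutation p = 0.0507, adjusted 0.177; r = 0.372 without the 2 farthest). Msr1 and Cd36 stood at r = 0.546 (permutation p = 0.0406, adjusted 0.213; rho = 0.692, permutation p = 0.00399, adjusted 0.0279; r = 0.63 without the 2 farthest). Olr1 and Clec7a, next to each other in the genome and both highest at 60%, had an r of 0.283 within groups (permutation p = 0.266, adjusted 0.621; rho = 0.181, permutation p = 0.489, adjusted 0.652; r = 0.227 without the 2 farthest). The r of Olr1 with the other 5 members lay between -0.256 and 0.237. All these values share the library totals of the same 18 tumors.

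**Figure D4:**
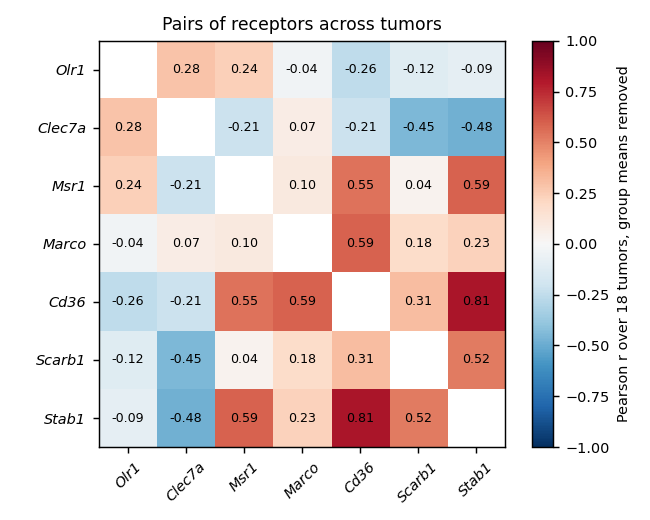
Pearson r of log2 CPM for each pair of receptors over 18 tumors after removal of group means, from -1 (blue) to 1 (red). Cd36, Stab1 and Msr1 form a block of positive values between 0.55 and 0.81, and Clec7a is at -0.48 with Stab1 and -0.45 with Scarb1.

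Among 12309 other genes with a mean log2 CPM of at least 1, those most like each member within groups were named by r over the 18 tumors as a description. For Olr1 they were Snx14 (0.808), Galnt7 (0.755) and Atm (0.753), and for Clec7a Aftph (0.909), Cxcl9 (0.908), a chemokine induced by interferon-gamma, and Mmp25 (0.902). Msr1 was most like Mfhas1 (0.836), Sp1 (0.799) and Padi4 (0.792). Cd36 was most like Pf4 (0.858), Pitpnc1 (0.852) and Mrc1 (0.85), the macrophage mannose receptor, and Stab1 like Ints1 (0.859), Fam216a (0.827) and C5ar1 (0.825). Marco was most like Nutf2-ps1 (0.822), Stard3nl (0.755) and Aifm1 (0.749). The values of Scarb1, with Exosc2 (0.977), Aif1l (0.941) and Mybl2 (0.937), include 40% tumor 2, which held the distant Scarb1 level.

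Cells other than macrophages that carry Cd36, Scarb1 and Stab1 were present in varying amounts. The summed level of 9 endothelial genes ran from 189 to 300.0 CPM in control tumors, 168.5 to 284 CPM at 40% and 150 to 290.1 CPM at 60%. That of 5 adipocyte genes was at most 8.01 CPM in any tumor, and that of 4 platelet genes ran from 6.29 to 24.4 CPM in control tumors against 3.44 to 9.05 CPM in edited tumors. Skeletal muscle genes ran from 1.47 to 332.5 CPM over all tumors, with both ends at 60%. Fibroblast and pericyte genes (6) ran from 2337 to 4003 CPM over all tumors and 11 neutrophil genes from 66.0 to 211 CPM. The 7 dendritic cell genes summed to 24.9 to 41.4 CPM in control tumors, 24.5 to 45.4 CPM at 40% and 31.8 to 55.7 CPM at 60%. The 7 T and NK cell genes summed to 11.1 to 32.2 CPM in control tumors, 11.1 to 24.7 CPM at 40% and 11.7 to 56.6 CPM at 60%, with the highest sums, 46.0 to 56.6 CPM, in the 3 tumors that had the most Clec7a. All 7 T and NK cell genes were above 0 for 60% against control and against 40%, with medians of 0.77 and 0.82 on the log2 scale beside -0.00251 and -0.00363 over all genes, although none passed the threshold and 1 and 3 had an unadjusted p under 0.05. Of 4 leukocyte genes, the sum ran from 368 to 543 CPM in control tumors, 382 to 501.5 CPM at 40% and 434 to 759.5 CPM at 60%. B cell genes (4) summed to at most 1.78 CPM and keratinocyte genes (5) to at most 3.09 CPM. Across the 18 tumors, with group means removed, Scarb1 followed the 8 endothelial genes that passed the filter (Pearson r = 0.656, permutation p = 0.00099, adjusted 0.0143). Its Spearman rho was 0.606 (permutation p = 0.00703, adjusted 0.0711), and its r was 0.463 without the 2 farthest tumors. How much of the members' values came from these cells was not tested.

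Dectin-1 signaling was followed through 12 genes. For 60% against control, Card9, the adaptor downstream of Syk, was higher by 0.60 ± 0.17 (SE) on the log2 scale (adjusted p = 0.0995) and the only gene of the 12 to pass the test, with 10 of 12 above 0 and a median of 0.31 beside -0.00251 over all genes. Card9 was at 8.93 CPM ± 1.57 (SD, n = 4) in control tumors, 10.3 ± 2.36 (n = 7) at 40% and 13.6 ± 2.60 (n = 7) at 60%, and its call was not stable. It was lost with the replicate block (adjusted p = 0.194), with DESeq2 size factors (adjusted p = 0.1003), with the macrophage term (0.27, adjusted p = 0.505), without control tumor 1, 3 or 4 and without any single 60% tumor other than tumor 6. DESeq2 called 5 genes of this list (Card9, Malt1, Plcg2, Prkcd and Tlr2). For 60% against 40% none of the 12 passed, with 7 at an unadjusted p under 0.05 beside 14.1% of all genes, 11 above 0 and a median of 0.23 beside -0.00363 over all genes, and limma-voom and DESeq2 called Tlr2. Tlr2, a partner receptor of dectin-1, and the kinase Prkcd came closest, at 0.49 ± 0.14 (adjusted p = 0.104) and 0.23 ± 0.08 (adjusted p = 0.18). For 40% against control none passed, and the smallest p values belonged to Rela (-0.11, adjusted p = 0.924) and Card9 (0.20, adjusted p = 0.945).

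Lipid uptake and foam cell handling was followed through 18 genes. None passed for 60% against control, where Soat1, which esterifies cholesterol, and Npc2, which moves it out of lysosomes, came closest at 0.31 ± 0.09 each (adjusted p = 0.119 and 0.125). DESeq2 called both, and Npc2 was called with the replicate block (0.38, adjusted p = 0.0924). For 60% against 40%, Ch25h, the cholesterol 25-hydroxylase of activated macrophages, rose by 0.74 ± 0.18 (adjusted p = 0.0674), from 9.28 CPM ± 2.72 to 15.5 ± 2.99 (SD, n = 7 each), and no other gene of the list passed. Its call was lost with no filter on low counts (adjusted p = 0.156), without 60% tumor 1, 2, 4 or 7 or 40% tumor 1, 3, 5 or 6, and with the macrophage term (0.53, adjusted p = 0.329). With that term Pparg was the gene of the list past the threshold (-1.20, adjusted p = 0.0828). The list's median was 0.06 for 60% against control, -0.08 for 40% against control and 0.13 for 60% against 40%. For 40% against control none passed, with Fabp4 (-0.68, adjusted p = 0.924) and Soat1 (0.18, adjusted p = 0.924) closest. In the cultures Pparg, the lipid-sensing nuclear receptor, fell by 2.80 on the log2 scale (SE 0.29, adjusted p = 0.0492), from 1.48 CPM ± 0.229 in control cells to 0.208 ± 0.0726 in m.11944 60% cells (SD, n = 4 each). With the culture pairs as a block the difference was -2.78 (adjusted p = 0.0024). Without the block the call was lost when any 1 of the 8 cultures was left out, at -2.68 to -3.03 and adjusted p between 0.114 and 0.354.

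Other scavenger receptors did not pass the test in any tumor comparison, with 16 of 18 tested (unadjusted p under 0.05 for 4 at 60% against control, 0 at 40% against control and 2 at 60% against 40%, beside 16.3%, 5.09% and 14.1% of all genes), although DESeq2 called Lrp2 for 60% against 40%. For 60% against control the genes with the smallest p were Scarb2, the lysosomal class B receptor, at 0.40 ± 0.16 (adjusted p = 0.212) and Cxcl16, the scavenger receptor and chemokine, at 0.50 ± 0.22 (adjusted p = 0.258), with 9 genes above 0, 7 below and a median of 0.02. For 60% against 40% they were Lrp2 at -1.94 ± 0.68 (adjusted p = 0.197) and Scarb2 at 0.28 ± 0.13 (adjusted p = 0.339), and for 40% against control Megf10 at 1.81 ± 1.23 (adjusted p = 0.933) and Ager at 0.35 ± 0.27 (adjusted p = 0.944).

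Olr1 and Clec7a lie in the natural killer gene complex, a row of lectin receptor genes. Within 250 kb of Olr1, 33 genes are annotated, 19 of them coding, and 19 were tested, 17 of which are not members. None of the 17 passed the threshold for 60% against control or against 40%, beside 2.31% and 1.81% of all genes tested. For 60% against 40%, 13 of 17 were above 0, beside a median of -0.00363 over all genes. Whether the values followed distance was not tested, and the neighbors named here were chosen after their values were seen. Gabarapl1, whose product works in autophagy and whose lowest coordinate is 47.5 kb from that of Olr1, differed by 0.03 ± 0.09 and 0.01 ± 0.08 in these comparisons, and Clec1a on the other side by 0.10 ± 0.09 and -0.08 ± 0.08. Klre1, a natural killer cell lectin 92.7 kb away, stood at 1.30 ± 0.47 (adjusted p = 0.174) and 0.96 ± 0.38 (adjusted p = 0.251), beside the T and NK cell sums given above, whose part in this was not tested. Cd69 and Clec12a were at 1.01 ± 0.40 and 0.89 ± 0.39 for 60% against control (adjusted p = 0.22 and 0.265). Of a list of 13 other C-type lectins of this region and its relatives, none passed in any tumor comparison, with Clec4e, a lectin receptor of macrophages, closest at 0.69 ± 0.23 (adjusted p = 0.148) and 0.57 ± 0.19 (adjusted p = 0.175), and the list's median at 0.36 and 0.37. DESeq2 called Clec4e in both comparisons with 60% tumors.

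**Figure D5:**
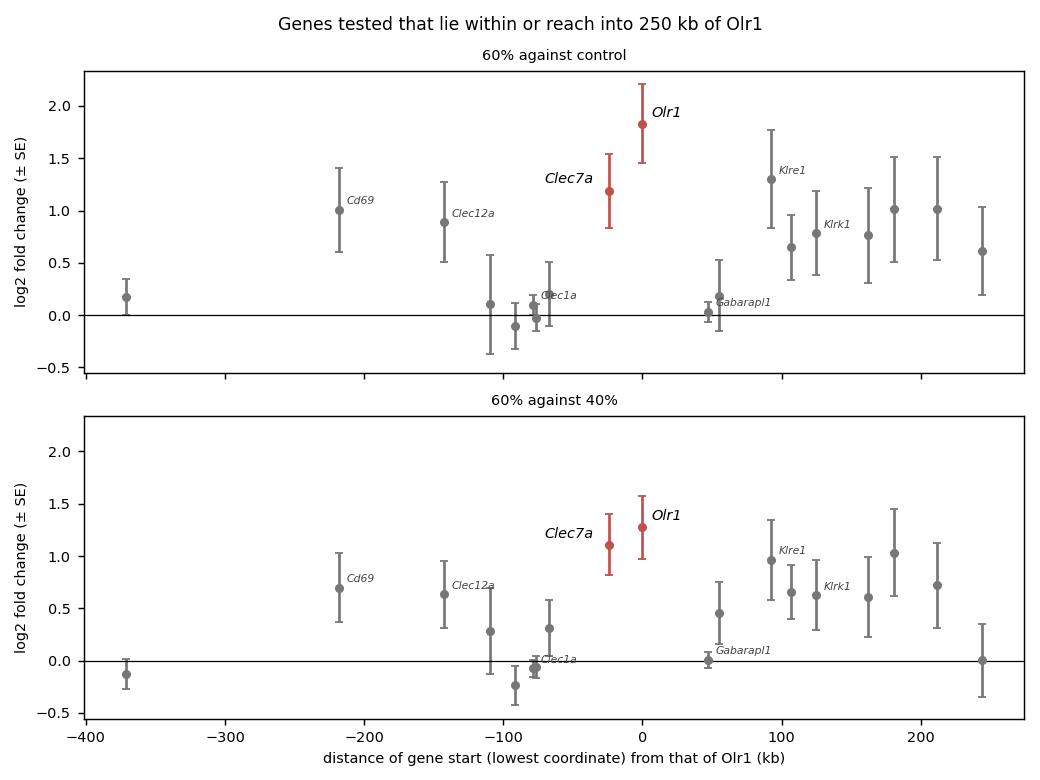
Fitted log2 fold change (± SE) of the 19 genes tested that lie in or reach into the 250 kb on either side of Olr1, against the distance of their lowest coordinate from that of Olr1 in kb, for 60% against control (top) and 60% against 40% (bottom). Olr1 and Clec7a are red, the nearby Gabarapl1 and Clec1a lie near 0, and several lectins farther out, such as Klre1, lie above 0.

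Cultured cells gave the level of these receptors without host cells, in lines with the m.11944 change, since m.12436 cultures were not analysed here. Clec7a and Marco had no read in any of the 8 cultures, which allows up to 0.0829 to 0.119 CPM in a library (3 counts, counting error only). Msr1 had 2 reads and Cd36 had 1 over all 8 cultures. Stab1 had 0 to 5 reads per culture. Olr1 had 1 to 16 reads, at 0.193 CPM ± 0.183 in control cells and 0.225 ± 0.139 in m.11944 60% cells (SD, n = 4 each), with overlapping values. Of 14 macrophage genes, 10 averaged 3 counts per library or fewer in control cultures and 9 in m.11944 60% cultures.

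Scarb1 was the exception, at 63.6, 62.8, 79.5 and 98.8 CPM in control cells and 68.3, 64.9, 85.0 and 98.4 CPM in m.11944 60% cells. The values overlapped throughout, and the difference was 0.06 ± 0.19 (SE) on the log2 scale (adjusted p = 1.00, 95% interval -0.32 to 0.43). It was the only member that could be tested in cultures, and 0.0387% of the 12930 genes tested there (5) were called, against 916 with the culture pairs as a block, Scarb1 not among them (adjusted p = 0.614). Cultures and tumors were fitted apart, and Scarb1 averaged 57.8 to 65.0 CPM over the tumor groups, with every tumor but 40% tumor 2 below 70 CPM, and 76.2 to 79.2 CPM over the culture groups.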

How the data were processed

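Bulk RNA-seq was made from tumors and cultures of B78-D14 cells. The authors deposited 1 table of raw counts per gene, with no normalization. Per their methods, reads were aligned with STAR (2.7.10a, GRCm39) and counted with featureCounts (subread 2.0.3) on the Ensembl 107 annotation. The strand setting is not given in the sources used here. Of 47 sample columns, 26 were matched to the labels and used. The other 21 were not used. The m.11944 60% cultures were matched through a heading in the study's source data that pairs their column prefix with that group, which no label states.

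From the counts, CPM were computed with TMM scaling in edgeR (4.0.16, R 4.3.3). The 18 tumors were fitted together and the 8 cultures apart with the quasi-likelihood test after filterByExpr, two-sided, with Benjamini-Hochberg adjustment over all genes tested and the study's threshold of 0.1. An SE is that of the log2 fold change, and 95% intervals come from it. limma-voom (limma 3.58.1), DESeq2 (1.42.0), other filters, a replicate block, a macrophage term and leaving out each library were alternatives. Scripts were tested on simulated data. The labels only number the cultures of a group. The methods speak of biological replicates for the study's experiments in general, without naming these cultures, so part of the spread between them may be technical. No 2 libraries of a group agreed within sampling noise.

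Same-numbered cultures deviated together from their group means (r between 0.718 and 0.832, mean 0.796, over 4 pairs, against -0.264 for other pairs), so culture numbers were taken as pairs, and culture values of the fit with this block are given beside those of the fit without it.

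Relations across tumors used log2 CPM with a prior count of 2 after removal of group means, with 100000 permutations within groups. Symbols, transcript lengths and GRCm39 coordinates came from GENCODE M39, which held 56017 of the 56748 gene IDs, and promoter windows from RefSeq (GRCm38.p6). Proteins were translated from canonical transcripts and aligned pairwise with Biopython (1.88). Genes named were the 7 members, the 3 genes most like each, the genes of each pathway list past the threshold or otherwise the 2 with the smallest p, and a few markers and neighbors of Olr1 chosen after their values were seen. Members and lists were chosen with earlier results of these data known. Cd163l1 found no entry in the annotation. A result for a macrophage list gene is not reported here.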

Additional observations from a re-analysis of the deposited data

Results flagged for a closer look

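Among 25 groups of members' values tested for a sample far from the others, where chance alone marks about 1 in 20, a single value stood out. Scarb1 was at 96.6 CPM (1993 counts) in 40% tumor 2, with a gap to the nearest of the other 6 tumors of 0.691 of the group's range. Without that tumor the log2 difference of Scarb1 for 40% against control was -0.09 in place of 0.03.

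Clec7a and Msr1 differed between 60% and 40% tumors, at 1.11 on the log2 scale for Clec7a and 0.35 for Msr1 in the edgeR fit (adjusted p = 0.0892 and 0.0908). Both adjusted p lie close to the threshold of 0.1, and neither was under 0.05. With the tumor numbers as a block they were 0.184 and 0.145. Each group came from 1 sorted population, so mutant load and population cannot be told apart. With the macrophage genes' mean as a term in the fit the values were 0.51 for Clec7a and 0.38 for Msr1 (adjusted p = 0.419 and 0.231).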

How the results depend on the processing

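Under the alternatives run, the sign of a member's difference turned only for Scarb1 and Clec7a, as given below. Given as a description, Olr1 was not past the threshold for 60% against control with the macrophage term or without control tumor 3. For 60% against 40% Olr1 was not past it with no filter on low counts or with the macrophage term. The same held there without 60% tumor 1 or 7 or 40% tumor 1 or 6. Clec7a for 60% against control, also a description, was past the threshold with DESeq2 and not in the fit of all 18 tumors. For 60% against control the members past the threshold were 2 with DESeq2 or with only the 2 groups fitted and 0 with the macrophage term. Leaving out single libraries gave 0 to 2, with 0 without control tumor 3 (66 genes called in place of 374) and 2 without control tumor 2 or 4 or 60% tumor 6. For 60% against 40% they were 0 at an adjusted p under 0.05, 0 with no filter on low counts, 2 with only the 2 groups fitted (Clec7a at 0.113), 1 with the replicate block and 0 with the macrophage term, and 0 to 3 when single libraries were left out. For 40% against control and in cultures the count stayed at 0 under every alternative run. The pathway list genes past the threshold for 60% against control (1) were 8 with DESeq2, 0 with DESeq2 size factors, 0 with the macrophage term and 0 to 7 without single control tumors, and the count of 1 with the replicate block was Npc2 in place of Card9. For 60% against 40% (1) the count of 1 with the macrophage term was Pparg in place of Ch25h, and the counts were 2 with limma-voom and 4 with DESeq2. The cause of these differences was not tested.

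Over all genes, the 374 calls for 60% against control became 1056 with DESeq2, 943 with only the 2 groups, 178 with the block and 67 with the macrophage term, and the 293 for 60% against 40% became 744 with DESeq2, 178 with no filter and 87 with the macrophage term. In cultures the 5 became 84 with DESeq2. Differences near 0 turned their sign. Scarb1 for 40% against control (0.03) ranged from -0.0933 to 0.0815 when single tumors were left out, below 0 without control tumor 4 or 40% tumor 2. Clec7a for 40% against control (0.08) was -0.0565 with the macrophage term and ranged from -0.0675 to 0.298 when single tumors were left out, below 0 without control tumor 3 or 40% tumor 3. Scarb1 in cultures (0.06) ranged from -0.0671 to 0.207, below 0 without m.11944 60% culture 4 or control culture 1 or 2.

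Tumor numbers did not pair the tumors. Same-numbered tumors had mean correlations of -0.156 (60% and control), -0.006 (40% and control) and -0.026 (60% and 40%). With the replicate block, Clec7a and Msr1 for 60% against 40% had adjusted p of 0.184 and 0.145, and Olr1 had a log2 difference of 1.73 for 60% against control. Depth limits Marco most, with 0 to 67 counts per tumor, and Olr1, with 23 to 192.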
